A study of Caenorhabditis elegans with 36 samples.

Results

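The glutathione S-transferase genes of the nematode Caenorhabditis elegans were taken as all genes in the count table whose symbol begins with gst-, gsto- or gstk- followed by a number. The rule found 49 genes among 27782 identifiers, of which 44 carry a gst- symbol, 3 a gsto- symbol (the omega class) and 2 a gstk- symbol (the kappa class). All 49 are annotated as protein-coding. Glutathione S-transferases join the tripeptide glutathione to reactive compounds, such as drugs, plant toxins and breakdown products of oxidised lipids, and the conjugates are then pumped out of the cell. In the worm several of the genes are known targets of SKN-1, the transcription factor that switches on detoxification genes, and gst-4 is the gene whose promoter is most used as a reporter of that factor. Not every member is a detoxification enzyme: the zeta class genes gst-42 and gst-43 belong to the family of maleylacetoacetate isomerases, which act in the breakdown of tyrosine.

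RNA was sequenced from whole worms of the wild-type strain N2, collected as adults of day 1 after exposure from the L1 larval stage. Each plate started with about 3000 worms, so every library is a pool of animals, and the labels state 4 biological replicates for each of the 9 groups. All groups, controls included, were grown at 20 °C on HT115 bacteria with IPTG, carbenicillin and 10 µM 5-fluorouracil. Batch 1 compared a DMSO solvent control with 31.5 µM terbinafine, 250 µM miglustat, 500 µM BAY2402234, 500 µM brequinar and dhod-1 RNAi, and batch 2 compared its own DMSO control with 50 µM doxycycline and 250 µM teriflunomide. All groups but the RNAi group ate bacteria with the empty vector, and the RNAi group also received DMSO. Terbinafine inhibits squalene epoxidase of fungi, and miglustat inhibits glucosylceramide synthase. BAY2402234, brequinar and teriflunomide inhibit dihydroorotate dehydrogenase, the mitochondrial pyrimidine enzyme that dhod-1 encodes, and doxycycline blocks translation in mitochondria. The comparisons ask how each treatment moves the family against the DMSO control of its batch.

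The 36 libraries held 19253276 to 20455600 counts. Levels below are CPM, the counts of a gene scaled to a library total of 1000000, with means ± SD over n = 4 libraries. Fold changes are on the log2 scale from edgeR's quasi-likelihood test, with p-values adjusted over all genes tested and called below 0.05. The targeted gene dhod-1 had 56.2, 79.5, 73.4 and 75.3 CPM under RNAi and 81.2, 77.3, 86.2 and 78.9 CPM in DMSO, a log2 change of -0.28 (SE 0.08, adjusted p = 0.00482) with groups that overlapped. Replicate 1 of the batch 2 DMSO control stood above the other 3 libraries of its group for several members, and the main results that move with it are given without it. In some of these members replicate 3 also stood above replicates 2 and 4, a split that remains without replicate 1. Replicates 1 to 4 had 31.3, 4.02, 15.7 and 2.8 CPM for gst-26, and 30.1, 12, 20.1 and 9.76 CPM for gst-36. RNA of the whole body was measured, so fewer cells of a type and less RNA per cell cannot be told apart.

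The family had 2 dominant members in the DMSO controls. In the batch 1 DMSO control, 19 of the 49 genes reached a mean of 5 CPM, in the batch 2 control 17 did, and 18 genes stayed under 1 CPM in both. The pi class gene gst-1 (WBGene00001749, chromosome III, 9059331 to 9060181, WBcel235) and gst-7 (WBGene00001755, chromosome II, 4882062 to 4883358) together made up 62.2% of the summed CPM of the family in batch 1 and 56.6% in batch 2. Scaled to exon length, gst-1 had 303.3 ± 25.4 CPM per kb and gst-7 197.4 ± 14.5 CPM per kb in the batch 1 control. The next gene per kb, gst-27, had 34.7 ± 3.16, and gst-13, gst-24, gst-36, gst-20 and the kappa class gene gstk-1 followed between 23.9 and 18.2 CPM per kb, with neighbours in that order closer than their SDs. In the batch 2 control gst-1 had 243.5 ± 44.2 and gst-7 214.7 ± 25.8 CPM per kb, a gap within the spread. The DMSO groups of the batches did not overlap for 12 of the 49 genes. Among these, gst-24 had 15.5 ± 2.35 CPM in batch 1 and 1.58 ± 0.682 CPM in batch 2, and the batch and the control cannot be told apart there.

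**Figure D1:**
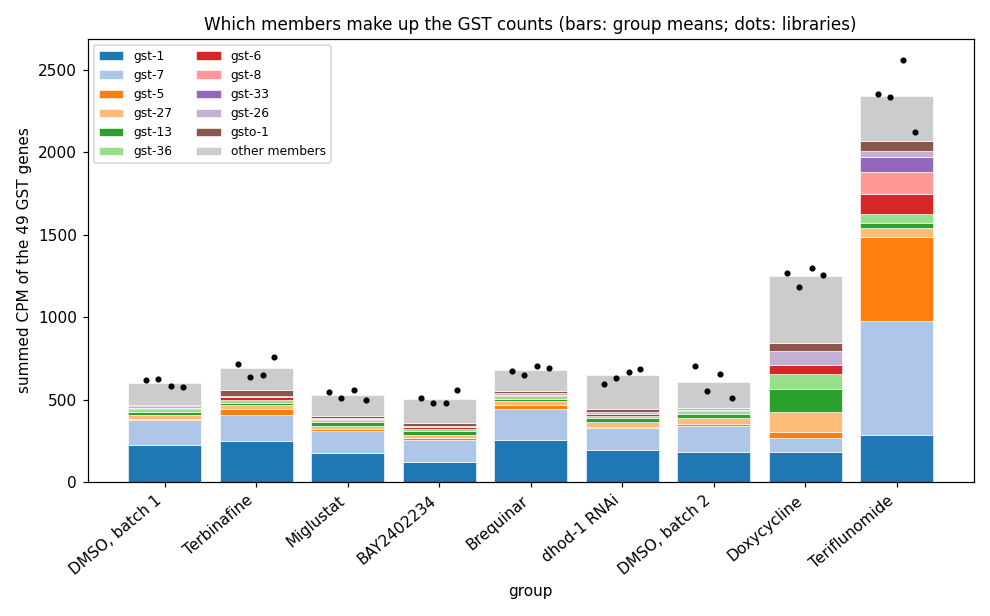
Summed level of the glutathione S-transferase genes in each of the 9 groups: stacked bars give the mean CPM of the leading members and of all others, and dots give the sum in each library (n = 4 per group). The sum was 605.3 ± 90.9 CPM in the batch 2 DMSO control, 1250.9 ± 50.1 with doxycycline and 2343.2 ± 177.3 with teriflunomide, while the 6 groups of batch 1 had means between 507.0 and 690.8.

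Teriflunomide gave the highest summed level of the family, with an induction concentrated in a few genes. Of 44 members tested, 24 rose and 1 fell (54.5% and 2.27%), against 19% higher and 19.7% lower among all 15695 genes tested in that comparison. Of the 44, 14 did not reach the filter's level of 0.509 CPM in all 4 DMSO libraries and so entered the test through treated libraries. These hold 9 of the 24 rises, so the count describes the genes tested and not the whole family. Among the other 30, 15 rose and 1 fell. The median log2 change of the tested members was 0.89, and that of all genes -0.02. The genes gst-5, gst-7 and gst-8 made up 57.1% of the summed CPM with teriflunomide, and gst-5 and gst-7 alone made up 59.4% of the difference in summed CPM from DMSO.

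The gene with the largest fold change was gst-8 (WBGene00001756, chromosome II, 4883712 to 4884599), a transferase known to act on hydroxynonenal, a product of lipid peroxidation. It had 134.2, 137.8, 146.9 and 119.4 CPM with teriflunomide and 0.199, 0.245, 0.249 and 0.05 CPM in DMSO. No library of batch 1 exceeded 0.348 CPM for gst-8, and no doxycycline library exceeded 0.31 CPM. The fitted difference was 9.52 on the log2 scale, and it is given without a test because gst-8 passed the filter on low counts through the teriflunomide libraries alone. The gene gst-5 (WBGene00001753, chromosome II, 10950352 to 10951603), of the same activity, went from 14.0, 11.5, 12.7 and 9.51 CPM in DMSO to 542.4, 478.0, 526.7 and 501.0 CPM, a log2 change of 5.5 (SE 0.12, adjusted p = 1.46e-10). The lowest teriflunomide library was far above the highest control for both genes.

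The dominant gst-7 rose as well, from 145.2, 169.9, 182.1 and 142.6 CPM to 715.1, 682.6, 784.0 and 585.5 CPM (log2 2.18, SE 0.11, adjusted p = 1e-07). Its neighbour gst-6, also known to act on hydroxynonenal, had 109.8, 128.9, 140.3 and 107.5 CPM with teriflunomide against 11.1, 3.14, 4.74 and 3.25 CPM in DMSO (log2 4.52, SE 0.37, adjusted p = 6.41e-06). The control of 11.1 CPM was replicate 1, and without it the change was 5.11. The other dominant gene, gst-1, moved less: 304.2, 264.2, 314.7 and 256.6 CPM against 208.5, 157.0, 213.3 and 150.7 CPM, with groups that did not overlap (log2 0.71, SE 0.12, adjusted p = 0.001).

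Members of low level in DMSO also rose. The gene gst-33 (WBGene00001781, chromosome V, 3467451 to 3468562) had 95.6, 89.4, 104.3 and 72.0 CPM with teriflunomide and 0.597, 1.72, 1.1 and 0.5 CPM in DMSO (log2 6.59, SE 0.32, adjusted p = 9.05e-08). The gene gst-44 (WBGene00001792, chromosome V, 16390891 to 16392490) had 39.6, 25.7, 31.2 and 25.0 CPM against 1.34, 1.86, 1.55 and 0.8 CPM (log2 4.52, SE 0.33, adjusted p = 1.99e-06). For gst-21 the values were 14.3, 17.3, 17.7 and 14.0 CPM against 1.29, 0.539, 0.798 and 0.5 CPM (log2 4.40, SE 0.31, adjusted p = 1.68e-06). In these 3 genes every treated library lay above every control. The gene gst-24, known to act on hydroxynonenal, rose by 3.98 (SE 0.30, adjusted p = 3.11e-06), from at most 2.59 CPM to between 17.6 and 26.8 CPM. The batch 1 DMSO control of gst-24 had 15.5 ± 2.35 CPM, near these treated levels. The part of the low batch 2 control in this rise was not tested. By contrast gst-10, of the same activity, was not called. It had 4.14, 7.45, 5.08 and 6.38 CPM against 24.2, 5.44, 8.13 and 4.05 CPM, with groups that overlapped. The gene gst-38 rose by 2.24 (SE 0.21, adjusted p = 1.81e-05). The other members called as higher and not described below were gst-14, gst-18, gst-2, gst-36, gst-39, gst-19, gst-28, gst-11 and gst-20, with log2 changes from 4.39 for gst-14 to 0.53 for gst-20. Of these, gst-14, gst-18 and gst-2 reached the filter's level in no DMSO library, and their values are descriptions. The calls of gst-11, gst-19 and gst-20 were lost without teriflunomide replicate 2, among other single libraries. The gene scav-5, which overlaps gst-36, rose by 1.51 (adjusted p = 1.11e-05).

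The omega class, whose enzymes are known for reducing activity with glutathione, rose in 2 of its 3 members. The gene gsto-2 (WBGene00015337, chromosome III, 8554772 to 8555744) had 16.4, 12.9, 16.6 and 11 CPM with teriflunomide and 0.0996, 0.392, 0.0499 and 0.3 CPM in DMSO, a fitted difference of 6.11. It reached the filter's level in no DMSO library, and that value is a description too. The gene gsto-1 had 54.9, 69.9, 77.2 and 51.7 CPM against 8.51, 0.833, 3.59 and 1.55 CPM (log2 4.19, SE 0.56, adjusted p = 0.000221), and 5.06 without DMSO replicate 1. The third, gsto-3, had 12.3, 10.0, 11.6 and 11.5 CPM against 11.4, 19.3, 13.6 and 24.3 CPM, and its change of -0.51 was not called (adjusted p = 0.0514). All libraries of the first pair were apart from the controls, and those of gsto-3 overlapped. The fall of gsto-3 passed the threshold without DMSO replicate 1 or 3 and with DESeq2.

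The changes of gst-4, gst-13 and gst-42 with teriflunomide were small, and their calls depended on single libraries. The reporter gene gst-4 had 10.3, 24.3, 17.4 and 17.1 CPM with teriflunomide and 16.2, 4.31, 6.79 and 7.15 CPM in DMSO, which overlap (log2 1.08, SE 0.37, adjusted p = 0.0377). That call was lost without any one of DMSO replicates 2, 3 and 4 or teriflunomide replicates 2, 3 and 4, with adjusted p between 0.0681 and 0.111. The change of gst-13 was 0.58 (SE 0.20, adjusted p = 0.0425), with adjusted p between 0.0722 and 0.116 when DMSO replicate 2 or 4 or teriflunomide replicate 2, 3 or 4 was left out. The change of gst-42 was 0.53 (SE 0.16, adjusted p = 0.0213), with 0.0558 to 0.064 without DMSO replicate 2, 3 or 4 or teriflunomide replicate 2. The one member that fell was gst-29, with 0.253, 0.153, 0.508 and 0.817 CPM against 3.44, 1.52, 1.05 and 1.35 CPM (log2 -2.0, SE 0.52, adjusted p = 0.0105). The kappa class genes gstk-1 and gstk-2 were not called, with 0.00 and -0.37 on the log2 scale.

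The number of members called with teriflunomide was 25, between 19 (without teriflunomide replicate 2) and 30 (without DMSO replicate 1) when single libraries were left out. Without DMSO replicate 1, gst-26, gst-27, gst-34, gst-35 and gsto-3 also passed the threshold, gst-34 as a description. The change of gst-27 was then 0.90 (adjusted p = 0.00362). Intestinal marker genes took 0.178 to 0.215% of counts with teriflunomide against 0.0478 to 0.0941% in DMSO, and 6 of 8 rose. Body muscle markers took 1.03 to 1.21% against 0.501 to 0.81%, and 10 of 10 rose. Germ line markers took 1.01 to 1.15% against 1.06 to 1.38%, with 0 of 15 called. The part of these shifts in the transferase levels was not tested. The germ line gene nos-1, which overlaps gst-5 on the opposite strand, had a log2 change of -0.26 (adjusted p = 0.104) with teriflunomide, and kle-2, opposite gsto-1, one of -0.12 (adjusted p = 0.255).

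Doxycycline raised members at all levels, while the dominant gst-7 fell. Of the 44 tested, 29 rose and 4 fell (65.9% and 9.09%). Of all genes tested, 84.9% were called, 44.8% higher and 40.2% lower. The 14 members that did not reach the filter's level in all DMSO libraries hold 11 of the 29 rises, and among the other 30, 18 rose and 4 fell. The members' median log2 change was 1.25 and that of all genes 0.23, and the latter was 0.12 when libraries were scaled with DESeq2 size factors. With that scaling 32 of the 33 called members kept their call and direction, and gst-22 lost its call. The family was spread over more genes than in DMSO: gst-1 and gst-7 made up 21.6% of its summed CPM, and gst-1, gst-13 and gst-27 led with 184.0, 140.9 and 119.0 CPM.

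Among the transferases known to act on hydroxynonenal, gst-24 had 14.9, 24.1, 14.5 and 20.7 CPM with doxycycline and 2.59, 1.27, 1.1 and 1.35 CPM in DMSO (log2 3.48, SE 0.30, adjusted p = 3.74e-07). These doxycycline levels were also near the 15.5 ± 2.35 CPM of the batch 1 DMSO control, and the part of the low batch 2 control was not tested. The gene gst-6 had 54.3, 48.1, 60.2 and 54.9 CPM against 11.1, 3.14, 4.74 and 3.25 CPM (log2 3.21, SE 0.35, adjusted p = 4.43e-06). For gst-10 the levels were 58.5, 41.1, 47.3 and 45.4 CPM against 24.2, 5.44, 8.13 and 4.05 CPM (log2 2.11, SE 0.48, adjusted p = 0.00153). The groups were apart in all 3, and without DMSO replicate 1, the highest control, the change of gst-10 was 2.94. The gene gst-5 rose by 1.48 (SE 0.11, adjusted p = 7.54e-08), to between 33.3 and 38.8 CPM. The nos-1 gene on its opposite strand fell by 3.01 (adjusted p = 7e-10).

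Several members of middle level rose with doxycycline. The gene gst-13 (WBGene00001761, chromosome II, 9231457 to 9232344) had 145.6, 131.1, 159.1 and 128.0 CPM against 26.4, 18.4, 29.6 and 14.0 CPM (log2 2.58, SE 0.21, adjusted p = 2.69e-07). The gene gst-26 had 88.2, 84.2, 89.2 and 83.5 CPM against 31.3, 4.02, 15.7 and 2.8 CPM (log2 2.59, SE 0.60, adjusted p = 0.00196), and 3.42 without DMSO replicate 1. For gst-36 the values were 90.3, 87.3, 86.6 and 93.0 CPM against 30.1, 12, 20.1 and 9.76 CPM (log2 2.23, SE 0.29, adjusted p = 2.25e-05). The treated libraries of gst-26 and gst-36 lay close together, and the spread was in the controls. The genes gst-28, gst-27 and gst-38 rose by 2.24, 1.71 and 2.98 (adjusted p = 1.31e-05, 5.35e-05 and 7.68e-08). The scavenger receptor gene scav-5, on the locus of gst-36, rose by 1.59 (adjusted p = 3.37e-07). A further 16 members rose, from gst-18 by 2.54 to gst-41 by 0.61: gst-2, gst-3, gst-9, gst-11, gst-14, gst-18, gst-19, gst-20, gst-21, gst-22, gst-23, gst-34, gst-35, gst-39, gst-40 and gst-41. Of these, gst-2, gst-14, gst-18, gst-23 and gst-34 reached the filter's level in no DMSO library, and their values are descriptions. The call of gst-41 was lost without DMSO replicate 2 or 3 or doxycycline replicate 2. On the strand opposite gst-9 and gst-40, msp-33 and col-103 rose by 1.56 and 2.37 (adjusted p = 0.039 and 0.00678). With doxycycline they had 113.8 ± 31.3 and 592.8 ± 92.8 CPM, where gst-9 and gst-40 had at most 3.99 and 2.46 CPM.

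The reporter gene gst-4 had 40.9, 33.6, 51 and 38.6 CPM with doxycycline against 16.2, 4.31, 6.79 and 7.15 CPM (log2 2.16, SE 0.37, adjusted p = 0.000207), and the overlapping gene dhs-12 on the same strand fell by 0.94 (adjusted p = 6.86e-07). The zeta class gene gst-42 had 48.4, 41.3, 48.0 and 46.4 CPM against 18, 10.3, 10.9 and 11.3 CPM (log2 1.78, SE 0.16, adjusted p = 6.61e-07). The omega class gene gsto-1 had 37.7, 49.1, 45.4 and 55.1 CPM against 8.51, 0.833, 3.59 and 1.55 CPM (log2 3.61, SE 0.55, adjusted p = 8.14e-05), and 4.47 without DMSO replicate 1. All 3 genes were higher in every doxycycline library than in any control. The kle-2 gene opposite gsto-1 fell by 2.30 (adjusted p = 1.94e-10).

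The 4 members that fell included the dominant gst-7, with 89.2, 72.8, 90.6 and 93.7 CPM against 145.2, 169.9, 182.1 and 142.6 CPM (log2 -0.97, SE 0.11, adjusted p = 3.85e-06). The gene gst-44 had 0.362, 0.155, 0.256 and 0.619 CPM against 1.34, 1.86, 1.55 and 0.8 CPM (log2 -2.06, SE 0.37, adjusted p = 0.000248). The other two, gst-16 and gst-12, fell by 1.67 and 1.05 (adjusted p = 9.75e-05 and 0.00223) at levels of at most 3.04 CPM. Groups did not overlap for gst-7, gst-44, gst-16 and gst-12. The genes gst-1, gstk-1 and gsto-3 were not called, with changes of -0.07, 0.16 and 0.26.

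Germ line markers took 0.0942 to 0.124% of counts with doxycycline against 1.06 to 1.38% in DMSO, and 14 of 15 fell. Intestinal markers took 0.326 to 0.345% against 0.0478 to 0.0941%, and 8 of 8 rose. Body muscle markers took 2.26 to 2.43% against 0.501 to 0.81%, and 10 of 10 rose. Sperm markers took 0.0861 to 0.152% with doxycycline and 0.0863 to 0.119% with teriflunomide against 0.014 to 0.114% in DMSO, and 8 and 1 of 17 rose. Markers of molting larvae took 0.00564 to 0.0207% and 0.0055 to 0.00732% against 0.0305 to 0.0703%, and 4 and 7 of 8 fell. In the batch 1 DMSO control these larval markers took 0.00598 to 0.00946%, so the DMSO controls of the batches differed in them. What that difference means for the batch 2 contrasts was not tested. Zygotic embryo markers took 0.000269 to 0.000403% and 0.000361 to 0.000551% against 0.00141 to 0.00321%, and all 3 tested fell with both. No listed marker of these tissues was at 0 in all libraries of any of the 3 groups, and the part of these shifts in the transferase levels was not tested.

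**Figure D2:**
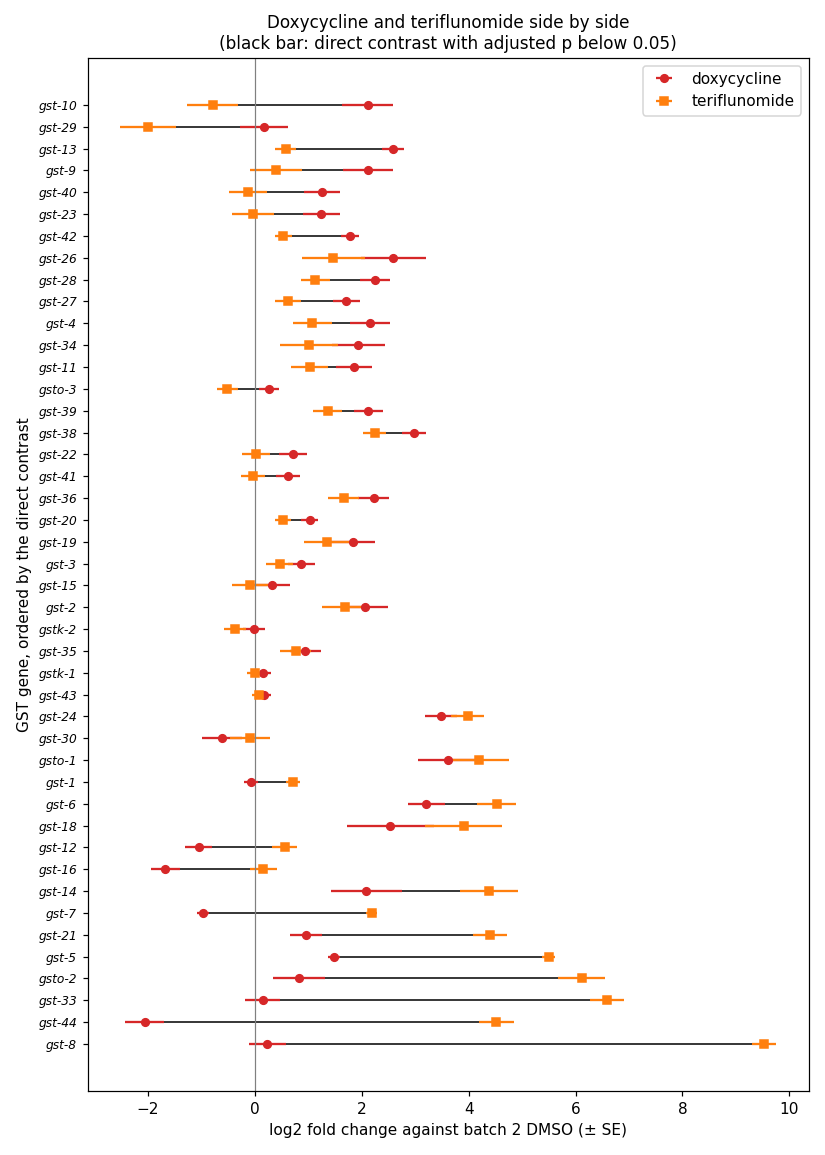
Log2 change against DMSO (± SE) of the tested members with doxycycline and with teriflunomide, side by side for each gene, with a black bar where the direct contrast of the treatments had an adjusted p below 0.05. The teriflunomide values of gst-8, gst-44 and gst-33 stand furthest from the doxycycline values, and both treatments have the same 4 DMSO libraries as control. Values and bars of gst-2, gst-8, gst-14, gst-18, gst-23, gst-34 and gsto-2 are descriptions, as these genes reached the filter's level in no DMSO library.

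Doxycycline and teriflunomide shared their controls, so the treatments were set against each other directly. In that contrast 17 of 44 members were higher with doxycycline and 13 with teriflunomide, which is 68.2% of the members beside 74.2% of all genes (36.3% higher with doxycycline and 37.9% lower). The log2 difference, doxycycline minus teriflunomide, was -9.29 for gst-8, -6.58 for gst-44 (SE 0.38, adjusted p = 7.58e-09) and -6.44 for gst-33 (SE 0.32, adjusted p = 2.3e-09). It was -5.29 for gsto-2, -4.01 for gst-5 (SE 0.12, adjusted p = 1.44e-10) and -3.15 for gst-7 (SE 0.11, adjusted p = 2.35e-10). All 6 were higher with teriflunomide, gst-8 and gsto-2 as descriptions. Higher with doxycycline were gst-10 by 2.90 (SE 0.50, adjusted p = 0.000256), gst-13 by 2.01 (SE 0.21, adjusted p = 2.84e-06), gst-42 by 1.25 (SE 0.16, adjusted p = 1.97e-05) and gst-4 by 1.09 (SE 0.36, adjusted p = 0.0173). The difference in gst-4 was lost without teriflunomide replicate 1 (adjusted p = 0.053). For gsto-1, gst-24 and gst-36 the difference was not called, with doxycycline minus teriflunomide at -0.59, -0.50 and 0.57 (adjusted p = 0.277, 0.1 and 0.0859). These values depended on the fit: with only the treated groups in it all 3 were called (adjusted p = 0.00221, 0.0342 and 3.69e-06), gst-36 was called with scaling by total counts (0.0313), and gst-24 without doxycycline replicate 2 (0.0455). The gst-36 libraries, 86.6 to 93.0 CPM with doxycycline and 47.4 to 62.4 CPM with teriflunomide, did not overlap.

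Terbinafine raised 2 members. Of 39 tested, 2 rose and 0 fell (5.13%), where 0.898% of the 15142 genes tested in batch 1 were called. The gene gst-5 had 29.9, 19.8, 30.2 and 74.5 CPM with terbinafine and 10.2, 7.29, 5.59 and 7.35 CPM in DMSO (log2 2.33, SE 0.35, adjusted p = 0.000654). The omega class gene gsto-1 (WBGene00016204, chromosome III, 7945542 to 7947018) had 28.7, 22.6, 28.7 and 47.3 CPM against 4.74, 7.83, 13 and 5.69 CPM (log2 2.01, SE 0.45, adjusted p = 0.0292). Groups were apart for both genes, and replicate 4 was the highest terbinafine library in each. The call of gsto-1 was lost, at adjusted p of 0.0535 to 0.146, without DMSO replicate 1, 2 or 4 or terbinafine replicate 1, 3 or 4. The call of gst-5 held without each single library and was lost when the fit held only the 2 groups compared (adjusted p = 0.0728).

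A further transferase with activity on hydroxynonenal, gst-6, had 19.8, 12.2, 15.7 and 23.1 CPM with terbinafine and 7.8, 9.35, 8.39 and 7.35 CPM in DMSO. Its groups did not overlap, and its change of 1.1 (SE 0.27) narrowly missed the threshold at an adjusted p of 0.0544. It passed with DESeq2 (adjusted p = 0.00493). Of the others with that activity, gst-10 and gst-24 were not called, with changes of 0.02 and 0.02 (adjusted p = 0.991 and 0.987), and gst-8 was not tested. The reporter gene gst-4 was not called (-0.35, adjusted p = 0.515). At an unadjusted p below 0.05, 9 of the 39 members differed, beside 2002 of the 15142 genes tested. The opposite-strand genes nos-1 and kle-2 had changes of 0.12 and 0.08 (adjusted p = 0.777 and 0.727), and no marker of the 6 tissue and stage lists was called with terbinafine or with miglustat.

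Miglustat raised gst-22 and lowered gst-1, 2 of 39 members (5.13%), where 0.581% of all genes were called. The gene gst-22 (WBGene00001770, chromosome V, 16231032 to 16232282) had 9.28, 8.36, 14.9 and 7.95 CPM with miglustat and 4.34, 1.71, 3.04 and 5.19 CPM in DMSO (log2 1.51, SE 0.27, adjusted p = 0.00714). That call was lost only when the fit was restricted to the 2 groups (adjusted p = 0.113). The gene gst-1 had 187.1, 165.4, 172.0 and 184.2 CPM against 223.3, 254.8, 218.0 and 212.5 CPM (log2 -0.36, SE 0.08, adjusted p = 0.0399). Both genes had groups that did not overlap. The call of gst-1 was lost without any one of the 4 DMSO libraries or of miglustat replicates 1, 2 and 3, at adjusted p from 0.0646 to 0.254.

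Set against each other, terbinafine and miglustat differed in 8 of 39 members (20.5%), where 2.96% of all genes differed. The gene gst-5 was higher with terbinafine by 1.99 (SE 0.35, adjusted p = 0.00158) and gst-1 by 0.48 (SE 0.08, adjusted p = 0.00117), while gst-22 was lower by 1.94 (log2 -1.94, SE 0.28, adjusted p = 0.000141). Also called were gsto-1, gst-6, gst-36 and gst-29, higher with terbinafine, and gst-13, lower, with adjusted p from 0.0182 to 0.0499. The number called was 3 without terbinafine replicate 1 and at most 6 without any other library.

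**Figure D3:**
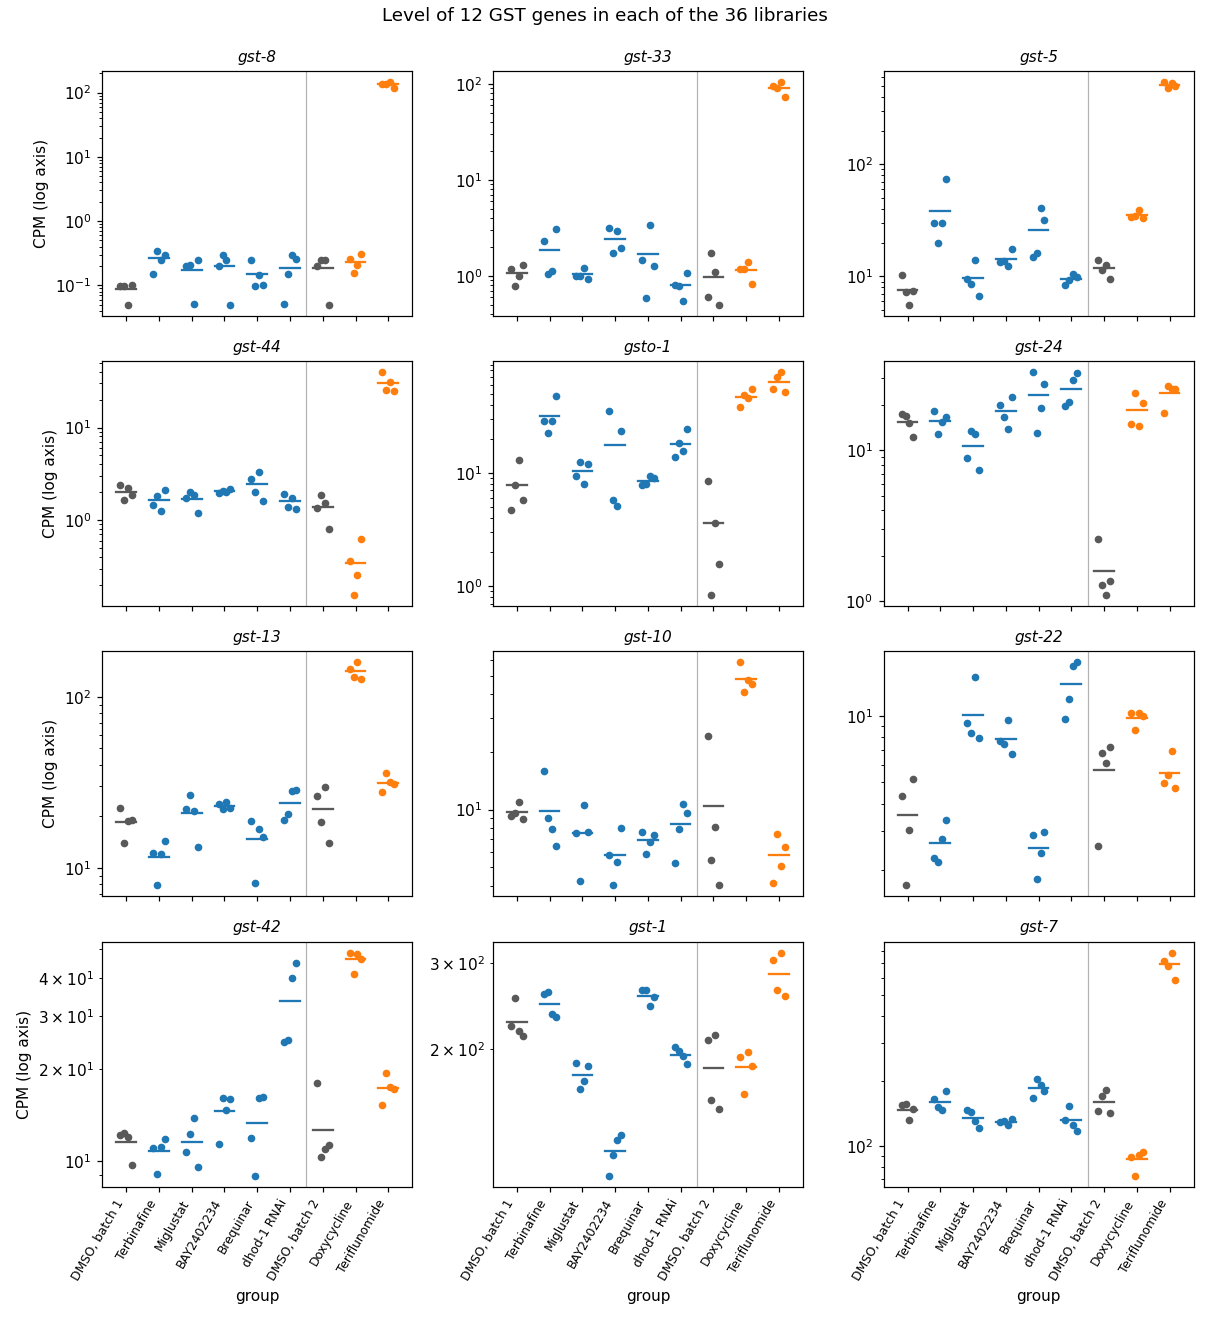
Level in CPM (log axis) of 12 members in each of the 36 libraries, grouped by treatment and batch, with bars at the group means. The 4 teriflunomide libraries of gst-8 lie between 119.4 and 146.9 CPM, and all other libraries of that gene lie below 0.35 CPM.

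BAY2402234 moved 18 of 39 members, 8 up and 10 down (46.2%), close to the 46.8% of all genes that were called, 23.2% higher and 23.6% lower. Of the 39, 9 did not reach 0.499 CPM in all batch 1 DMSO libraries, and these hold 4 of the 8 rises and 1 of the 10 falls. Among the other 30, 4 rose and 9 fell. The fall of greatest total level was in gst-1, with 110.1, 121.2, 130.3 and 133.1 CPM against 223.3, 254.8, 218.0 and 212.5 CPM in DMSO (log2 -1.04, SE 0.08, adjusted p = 7.84e-08). The reporter gene gst-4 had 6.52, 5.31, 5.11 and 6.68 CPM against 14.4, 11.3, 13.8 and 12.7 CPM (log2 -1.31, SE 0.22, adjusted p = 0.000144), and dhs-12, which overlaps it on the same strand, fell by 0.44 (adjusted p = 0.00188). For gst-26 the values were 5.42, 2.8, 2.9 and 5.63 CPM against 11, 11, 12.2 and 8.56 CPM (log2 -1.52, SE 0.25, adjusted p = 0.000117). In these 3 genes every treated library lay below every control. The gene gst-10 fell by 0.92 (SE 0.27, adjusted p = 0.00874) and gst-7 by 0.35 (SE 0.09, adjusted p = 0.00301). The other members that fell were gst-9, gst-12, gst-28, gst-29 and gst-27, by 1.67, 1.04, 0.84, 0.74 and 0.54. The call of gst-27 was lost without BAY2402234 replicate 1 (adjusted p = 0.0503), and that of gst-12 without BAY2402234 replicate 4.

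Of the members that rose with BAY2402234, the gene gst-22 had 7.73, 7.42, 9.56 and 6.73 CPM against 4.34, 1.71, 3.04 and 5.19 CPM (log2 0.98, SE 0.27, adjusted p = 0.00575), and gsto-3 had 18.7, 14.9, 12.4 and 14.8 CPM against 10.2, 9.0, 9.13 and 8.97 CPM (log2 0.54, SE 0.11, adjusted p = 0.000739). Both were apart from their controls. The genes gst-17, gst-18, gst-3, gst-40 and gst-33 rose by 1.02 to 1.85 at levels of at most 3.16 CPM, and gst-17 and gst-18 overlap on the same strand. Both gst-17 and gst-18 reached the filter's level of 0.499 CPM in no DMSO library, and their values are descriptions. The call of gst-33 was lost without BAY2402234 replicate 1 or 3 or without DMSO replicate 1, 2 or 3. The change of gst-20, 0.56 (adjusted p = 0.0234), lost its call without BAY2402234 replicate 2 or 3 or DMSO replicate 2 or 3 (adjusted p = 0.0531 to 0.0829). The gene gsto-1 had 35.4, 5.7, 5.11 and 23.5 CPM, a split within the group, and its change of 0.97 was not called (adjusted p = 0.0774). It passed without BAY2402234 replicate 2 (adjusted p = 0.0198) or 3 (0.016) or without DMSO replicate 3 (0.0327). Germ line markers took 1.11 to 1.16% of counts against 1.38 to 1.44% in DMSO, and 11 of 15 fell. Markers of molting larvae took 0.0128 to 0.0198% against 0.00598 to 0.00946%, and 3 of 8 rose. Of 8 intestinal markers 4 rose and 2 fell, and of 10 body muscle markers 1 rose and 1 fell. Of 6 zygotic embryo markers 1 rose, and 0 of 17 sperm markers were called. The part of these markers in the transferase values was not tested.

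Brequinar moved 6 of 39 members, 4 up and 2 down (15.4%), beside 15.7% of all genes, 5.03% higher and 10.6% lower. The gene gst-5 had 14.8, 16.3, 41.1 and 31.8 CPM against 10.2, 7.29, 5.59 and 7.35 CPM (log2 1.76, SE 0.35, adjusted p = 0.00173). The kappa class gene gstk-1, of a class known from mitochondria and peroxisomes, had 18.8, 17.5, 21.5 and 21.9 CPM against 14.0, 14.4, 12.8 and 15.6 CPM (log2 0.48, SE 0.13, adjusted p = 0.0121). Every brequinar library was above every control for these 2 genes, and nos-1, opposite gst-5, had a change of 0.11 (adjusted p = 0.589). The call of gstk-1 was lost without DMSO replicate 1 (adjusted p = 0.0533) or 3 (0.0539). The gene gst-7 rose by 0.33 (SE 0.09, adjusted p = 0.0148), a call lost without brequinar replicate 2 (0.0631) or DMSO replicate 3 (0.0688). The gene gst-21 rose by 1.51 (SE 0.33, adjusted p = 0.00333), at 0.501, 0.885, 1.76 and 1.46 CPM against 0.543, 0.245, 0.449 and 0.353 CPM, with groups that overlapped. It reached the filter's level of 0.499 CPM in 1 DMSO library, and in all 4 libraries of no group but brequinar. Of the members that fell, gst-29 changed by -1.32 (SE 0.24, adjusted p = 0.000609) and gst-28 by -0.65 (adjusted p = 0.0347). The last of these was lost without any one of brequinar replicates 2, 3 and 4 or DMSO replicates 1, 2 and 3, at 0.0585 to 0.0918. The count of called members was 3 without DMSO replicate 3. Body muscle markers took 0.421 to 0.472% of counts against 0.576 to 0.739% in DMSO, and 9 of 10 fell. Zygotic embryo markers took 0.00276 to 0.00331% against 0.00115 to 0.00192%, and 3 of 6 rose. Of 17 sperm markers 4 fell, and of 8 intestinal markers 2 fell. Of 8 markers of molting larvae 2 rose and 1 fell, and 0 of 15 germ line markers were called. The part of these markers in the transferase values was not tested.

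Feeding with dhod-1 RNAi raised 11 members and lowered 2 of 39 (33.3%), where 61.4% of all genes were called. By direction 28.2% of the members rose beside 31.3% of all genes, and 5.13% fell beside 30.1%. Of the 39, 9 did not reach 0.499 CPM in all batch 1 DMSO libraries, and these hold 4 of the 11 rises. The zeta class gene gst-42 (WBGene00001790, chromosome X, 11726264 to 11727936) had 24.6, 25.0, 40.1 and 44.8 CPM against 12.1, 12.4, 12 and 9.67 CPM (log2 1.44, SE 0.18, adjusted p = 1.29e-06). The kappa class gene gstk-1 (WBGene00014251, chromosome II, 9656705 to 9657719) had 30.1, 27.3, 34.9 and 39.2 CPM against 14.0, 14.4, 12.8 and 15.6 CPM (log2 1.12, SE 0.13, adjusted p = 2.42e-07). For gst-22 the values were 9.66, 11.9, 16.9 and 17.4 CPM against 4.34, 1.71, 3.04 and 5.19 CPM (log2 1.87, SE 0.27, adjusted p = 5.94e-06). In all 3 the groups were apart, and replicates 3 and 4 of the RNAi group were the highest. The gene gst-1 fell by 0.31 (SE 0.08, adjusted p = 0.00297).

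The low-level genes gst-17, gst-18, gst-25 and gst-3 rose by 2.55, 2.35, 1.79 and 0.83 with dhod-1 RNAi, at no more than 2.18 CPM in any RNAi library. Of these, gst-17, gst-18 and gst-25 reached the filter's level in no DMSO library, and their values are descriptions. The call of gst-3 was lost without DMSO replicate 2 or RNAi replicate 3. The gene gst-20 rose by 0.60 (adjusted p = 0.0115), a call lost without DMSO replicate 2 or RNAi replicate 4. The change of gsto-1 was 1.11 (adjusted p = 0.036) and was lost without DMSO replicate 1, 2 or 4 or RNAi replicate 2 or 4, at 0.0608 to 0.112. The kle-2 gene opposite gsto-1 rose by 0.30 (adjusted p = 0.00167). The changes of gst-24 (0.63), gst-30 (0.68) and gst-7 (-0.24) were each lost without RNAi replicate 3 or 4, and the first pair also without DMSO replicate 4, and gst-30 without DMSO replicate 1 too, at adjusted p from 0.0527 to 0.0985. The count of called members ranged from 8 without RNAi replicate 4 to 16 without RNAi replicate 1, and it was 6, all higher, with RNAi replicates 1 and 2 alone. Germ line markers took 0.606 to 1.28% of counts under RNAi against 1.38 to 1.44% in DMSO, and 15 of 15 fell. Markers of molting larvae took 0.0372 to 0.0776% against 0.00598 to 0.00946%, and 6 of 8 rose. Body muscle markers took 0.363 to 0.453% against 0.576 to 0.739%, and 10 of 10 fell. Sperm markers took 0.000589 to 0.00261% against 0.00742 to 0.0206%, and 16 of 17 fell, while zygotic embryo markers took 0.00246 to 0.00329% against 0.00115 to 0.00192%, and 2 of 6 rose. Intestinal markers took 0.0775 to 0.114% against 0.0631 to 0.0756%, and 3 of 8 rose. The part of these markers in the transferase changes was not tested.

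BAY2402234 and brequinar, inhibitors of the same enzyme given at the same 500 µM, were the 1 pair of compounds that could be compared at matched dose and time. They differed in 18 of 39 members, 10 higher and 8 lower with BAY2402234 (46.2%), where 63.4% of all genes differed. Lower with BAY2402234 were gst-1 (log2 -1.21, SE 0.08, adjusted p = 1.02e-09), gst-7 (-0.68, SE 0.09, adjusted p = 1.48e-06), gst-26 (-1.5, SE 0.25, adjusted p = 3.39e-05), gstk-1 (-0.63, SE 0.13, adjusted p = 0.000188) and gst-4 (-0.70, SE 0.22, adjusted p = 0.00994). The difference in gst-5 (-1.02, SE 0.34, adjusted p = 0.0125) was lost without brequinar replicate 3 (adjusted p = 0.0663). Higher with BAY2402234 were gst-22 (1.49, SE 0.28, adjusted p = 9.7e-05), gsto-3 (0.55, SE 0.11, adjusted p = 0.000236) and gstk-2 (0.82, SE 0.23, adjusted p = 0.00436). Differences were not called for gst-42 (-0.02, 95% interval -0.41 to 0.37), gst-43 (0.20, -0.12 to 0.52), gst-6 (0.26, -0.31 to 0.84) and gst-10 (-0.42, -0.99 to 0.15). For gsto-1 the interval was wider, at 0.85 (-0.07 to 1.78), and the difference was called without BAY2402234 replicate 2 (1.14, adjusted p = 0.0209) or 3 (1.16, 0.0169). Teriflunomide was given at 250 µM and in the other batch, so its values stand beside these without a comparison: gst-8, at 119.4 to 146.9 CPM with teriflunomide, had at most 0.295 CPM with BAY2402234 and 0.25 CPM with brequinar.

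The inhibitors were also set against dhod-1 RNAi. With BAY2402234, 3 members were higher and 11 lower than with RNAi (35.9%, beside 44.1% of all genes, 19.6% higher and 24.5% lower), and with brequinar 6 were higher and 13 lower (48.7%, beside 64.3%, 27.9% higher and 36.4% lower). Both were lower in gst-42, by 1.27 for BAY2402234 (log2 -1.27, SE 0.18, adjusted p = 1.07e-05) and by 1.25 for brequinar (log2 -1.25, SE 0.18, adjusted p = 9.2e-06), and these contrasts share the RNAi libraries. For gstk-1 the differences were -1.28 (SE 0.13, adjusted p = 1.32e-07) and -0.64 (SE 0.12, adjusted p = 0.000129). For gst-22 they were -0.89 (SE 0.26, adjusted p = 0.00774) and -2.38 (SE 0.28, adjusted p = 9.35e-07). For gst-1 BAY2402234 was lower (-0.73, SE 0.08, adjusted p = 6.55e-07) and brequinar higher (0.48, SE 0.08, adjusted p = 4.88e-05) than RNAi. The gene gst-5 was higher with brequinar than with RNAi by 1.52 (SE 0.34, adjusted p = 0.000641).

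**Figure D4:**
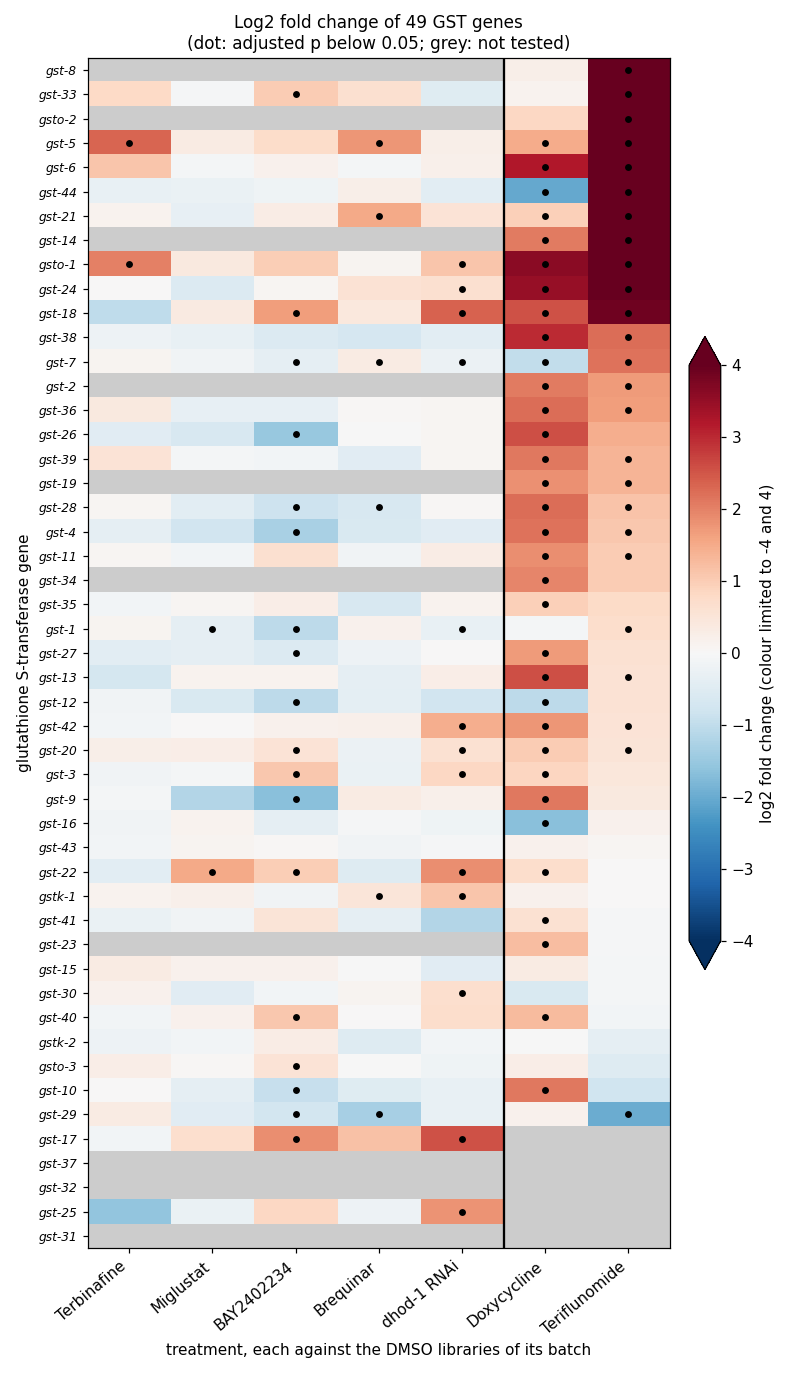
Log2 change against the DMSO control of the same batch for the 49 members (rows) in 7 treatments (columns), with dots where the adjusted p was below 0.05 and grey where a gene was not tested. The teriflunomide and doxycycline columns hold 25 and 33 called members (56.8% and 75.0% of those tested, beside 38.8% and 84.9% of all genes). Terbinafine and miglustat hold 2 each (5.13%, beside 0.898% and 0.581% of all genes). Dots of gst-2, gst-8, gst-14, gst-17, gst-18, gst-23, gst-25, gst-34 and gsto-2 are descriptions, as these genes reached the filter's level in no DMSO library of the batch tested.

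Across the 7 treatments, 34 members were called in 1 direction and 9 in both. Single treatments called from 0.581% (miglustat) to 84.9% (doxycycline) of all genes, and a share of all genes over the 7 treatments was not computed. The counts include members that passed the filter through treated libraries, gst-8 and gsto-2 among them, so they are descriptions. The dominant gst-7 was called in 5, rising with brequinar and teriflunomide and falling with BAY2402234, dhod-1 RNAi and doxycycline, and its calls with brequinar and RNAi were lost without single libraries. The gene gst-5 rose with terbinafine, brequinar, doxycycline and teriflunomide, and no single library ended those calls. The reporter gene gst-4 rose with doxycycline and teriflunomide and fell with BAY2402234. The genes gst-15, gst-43 and gstk-2 were tested in all 7 treatments and called in none. The zeta class gene gst-43 had between 3.49 and 7.6 CPM in every library. Counts were too low for a test in batch 1 for gst-2, gst-8, gst-14, gst-19, gst-23, gst-31, gst-32, gst-34, gst-37 and gsto-2, and in batch 2 for gst-17, gst-25, gst-31, gst-32 and gst-37, so that 3 members were tested in neither. Of the members left out of batch 2, gst-17 had 42 counts with teriflunomide and 18 with doxycycline against 1 in DMSO, ratios of 43.0 (95% counting interval 7.31 to 1738) and 18.7 (2.95 to 779). For gst-37 the counts were 11 and 10 against 1, ratios of 11.3 (1.64 to 485) and 10.4 (1.48 to 451), and these intervals cover counting error only.

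Many of the genes lie side by side. Chromosome II carries 26 of the 49, and 4 runs of neighbours at most 20000 bases apart hold 25 members. In the run of gst-6, gst-7, gst-8 and gst-9 (chromosome II, 4879891 to 4893573), teriflunomide raised 3 of the 4 and doxycycline raised gst-6 and gst-9 and lowered gst-7, while gst-8 was not called with doxycycline. In the run from gst-20 to gst-18 (9 genes, chromosome II, 13608154 to 13630887), doxycycline raised 5 of 8 tested and lowered 2, teriflunomide raised 5 of 8, and dhod-1 RNAi raised 4 of 7. In the run from gst-26 to gst-35 (9 genes, chromosome II, 15163817 to 15185389), doxycycline raised 6 of 7 tested, teriflunomide raised 2 and lowered 1, and BAY2402234 lowered 4 of 6. The shares of all genes called higher and lower were 44.8% and 40.2% with doxycycline and 19% and 19.7% with teriflunomide. With dhod-1 RNAi these shares were 31.3% and 30.1%, and with BAY2402234 23.2% and 23.6%. The counts in the runs are descriptions. On chromosome IV (10139380 to 10143099), gst-2, gst-3 and gst-4 all rose with doxycycline, gst-2 as a description. With doxycycline the neighbours gst-6 and gst-7 went in opposite directions.

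**Figure D5:**
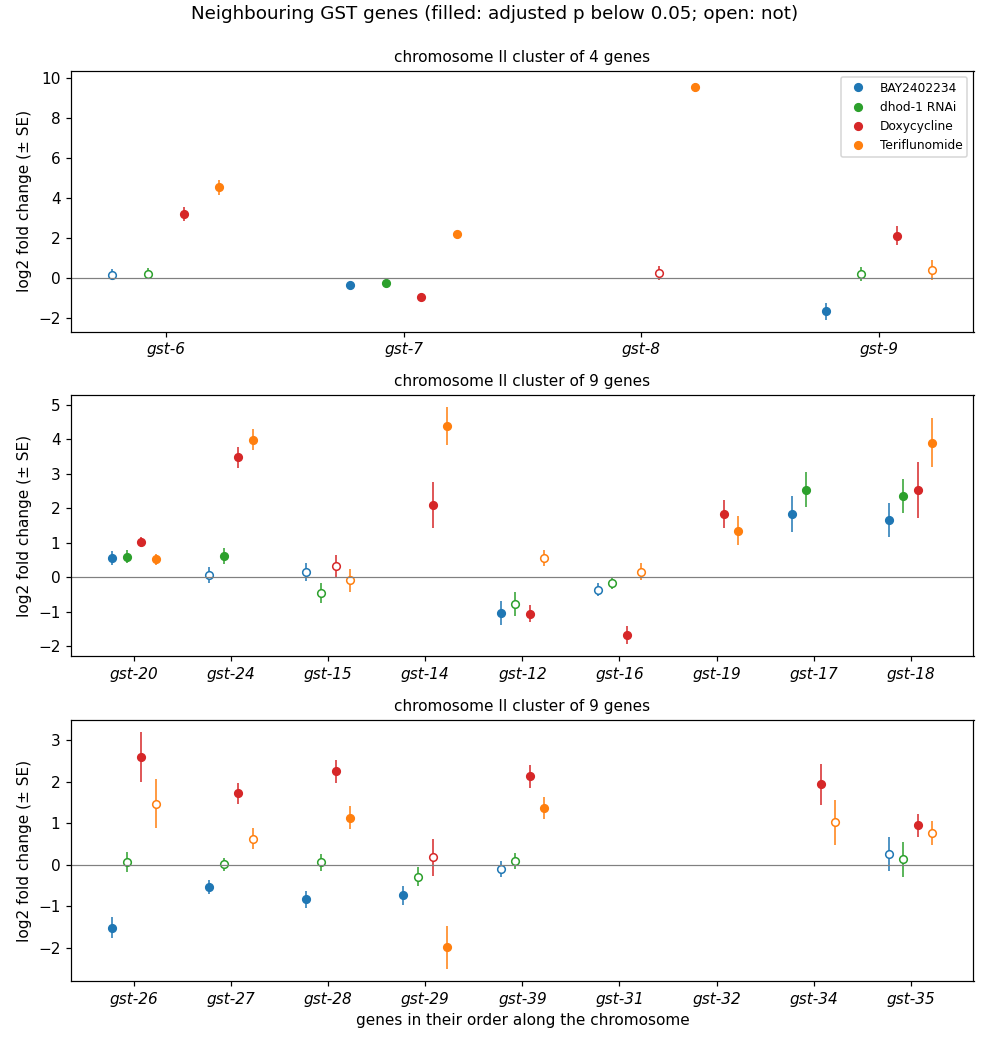
Log2 change against DMSO (± SE) of the members along 3 runs of neighbouring genes on chromosome II, in gene order, for BAY2402234, dhod-1 RNAi, doxycycline and teriflunomide; filled points had an adjusted p below 0.05. With teriflunomide gst-8 stands at 9.52, between gst-7 at 2.18 and gst-9, which was not called. Filled points of gst-8, gst-14, gst-17, gst-18 and gst-34 are descriptions, as these genes reached the filter's level in no DMSO library of the batch tested.

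Genes around the transferases were counted in 3 lists, and their counts stand beside shares called among all genes of 84.9% with doxycycline, 38.8% with teriflunomide, 46.8% with BAY2402234, 61.4% with dhod-1 RNAi and 15.7% with brequinar. By direction, 44.8% of all genes were higher and 40.2% lower with doxycycline, 19% and 19.7% with teriflunomide, and 23.2% and 23.6% with BAY2402234. With dhod-1 RNAi the shares were 31.3% and 30.1%, and with brequinar 5.03% and 10.6%. With so many genes called, the counts for doxycycline and dhod-1 RNAi say nothing particular about a list. Of 21 tested genes of glutathione synthesis and redox, 7 rose and 0 fell with teriflunomide, 7 rose and 9 fell with doxycycline, 3 rose and 10 fell with BAY2402234, 4 rose and 10 fell with dhod-1 RNAi, 1 fell with brequinar, and 0 were called with terbinafine or miglustat. The gene gcs-1, of the rate-limiting step of glutathione synthesis, was called only with doxycycline (log2 -0.12, SE 0.05, adjusted p = 0.0291). The glutathione synthetase gene gss-1 fell with doxycycline by 0.57 (SE 0.07, adjusted p = 1.65e-05) and with BAY2402234 by 0.44 (SE 0.08, adjusted p = 0.000238). The glutathione reductase gene gsr-1 rose by 0.24 with teriflunomide (SE 0.07, adjusted p = 0.0249) and fell by 0.45 with BAY2402234 (SE 0.09, adjusted p = 0.000794). The glutathione peroxidase gene gpx-1 rose with teriflunomide, from 8.89 ± 2.02 to 31 ± 2.07 CPM (log2 1.88, SE 0.14, adjusted p = 3.11e-06).

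Of 9 ABC transporter genes of the conjugate exporter list, 4 rose with teriflunomide and 0 fell, 5 rose and 3 fell with doxycycline, 4 rose and 2 fell with BAY2402234, 5 rose and 3 fell with dhod-1 RNAi, 1 fell with brequinar, 1 rose with terbinafine, and 0 were called with miglustat. The gene mrp-3 rose with teriflunomide from 16.9 ± 3.46 to 94.6 ± 12.4 CPM (log2 2.56, SE 0.14, adjusted p = 1.76e-07), and mrp-5 rose with terbinafine by 0.75 (SE 0.18, adjusted p = 0.0451). The transcript of skn-1 itself was called only as lower: it fell with doxycycline by 1.09 (SE 0.07, adjusted p = 1.54e-08), with BAY2402234 by 0.34 (SE 0.07, adjusted p = 0.000458) and with dhod-1 RNAi by 0.32 (SE 0.07, adjusted p = 0.000255), and it was not called with the other 4. The gene of its negative regulator, wdr-23, fell with doxycycline by 0.64 (SE 0.06, adjusted p = 6.82e-07). In the list of 12 genes of SKN-1 and its regulators, 1 rose and 5 fell with teriflunomide, 3 rose and 6 fell with doxycycline, 6 rose and 4 fell with BAY2402234, 6 rose and 3 fell with dhod-1 RNAi, 1 rose with brequinar, and 0 were called with terbinafine or miglustat.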

How the data were processed

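The authors deposited counts per gene for 36 libraries, and these counts were used as deposited. Per the submitters' processing notes, their pipeline named FastQC, STAR 2.7.3a and DESeq2 1.40.2, with genome build WBcel235. The counting tool, strandedness and annotation release are not given in the sources used here, so reads of overlapping genes may not be told apart, and how reads shared by similar members of the family were counted is not known; 14 of the 49 members overlap another gene and 35 none. Positions and exon lengths came from an Ensembl annotation of WBcel235. No gene, promoter or protein sequence is printed.

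The members and gene lists were chosen with earlier results of these data known. Genes were kept by filterByExpr (minimum count 10), scaled by TMM, and tested with edgeR 4.0.16 in R 4.3.3 (robust quasi-likelihood F test), in 1 fit for each batch, with Benjamini-Hochberg adjustment over all genes tested. Of the 49 members, 39 were tested in batch 1 and 44 in batch 2. SEs came from the log2 change and its F value, and 95% intervals from a t distribution. CPM uses library totals. Named members were up to 10 per comparison with DMSO (5 per direct contrast) with the largest called change, a mean of at least 5 CPM and groups apart, together with a panel and the 6 of highest level. Members outside this rule, most of them below 5 CPM, were named after their values were seen. Marker and pathway lists came from general knowledge.

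DESeq2 1.42.0 was the second tool. Alternatives were its size factors, no filter, total counts, a replicate block, 2-group fits, and leaving out each library. Replicate numbers of brequinar and dhod-1 RNAi deviated together (r = 0.233, 0.564, 0.368 and 0.600), and that contrast called 18 members with the block and 19 without. Replicates differed by more than counting noise (chi-square per degree of freedom of at least 3.73 for every pair). The procedure was tested on simulated data.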

Additional observations from a re-analysis of the deposited data

Results flagged for a closer look

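In 9 of 182 groups of 4 libraries tested, or 4.95%, 1 library lay far from the other 3 by Dixon's criterion, where chance gives about 1 in 20. The gene gst-4 had 4.31 CPM in miglustat replicate 2 and 8.53 to 9.03 CPM in the others. The gene gst-22 had 8.60 CPM in doxycycline replicate 2 beside 10.0 to 10.3 CPM, and gst-24 had 17.6 CPM in teriflunomide replicate 1 beside 25.3 to 26.8 CPM. For gst-27, brequinar replicate 1 had 26.1 CPM beside 20.7 to 21.5 CPM, and doxycycline replicate 2 had 128.0 CPM beside 115.0 to 117.2 CPM. For gst-42, replicate 4 of the batch 1 DMSO control had 9.67 CPM beside 12 to 12.4 CPM, and replicate 1 of the batch 2 control had 18 CPM beside 10.3 to 11.3 CPM. The gene gstk-1 had 10.9 CPM in BAY2402234 replicate 1 beside 15.1 to 15.7 CPM, and gsto-3 had 10.2 CPM in replicate 1 of the batch 1 DMSO control beside 8.97 to 9.13 CPM. The causes were not tested.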

How the results depend on the processing

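No value of a named member was called in the opposite direction under any alternative: 2996 kept their side of the threshold, 148 fell below it and 47 passed it. Counts of called members moved by over 1.5 times, or a contrast with few calls changed, as follows, and the causes were not tested beyond the smaller number of genes or samples used. Among members that overlap no other gene, 0 were called with terbinafine (main 2), 1 with miglustat (2), 8 with dhod-1 RNAi (13), 4 between terbinafine and miglustat (8) and 11 between BAY2402234 and brequinar (18). With DESeq2 terbinafine gave 4 and miglustat 3. With DESeq2 size factors terbinafine gave 3 and miglustat 1, and without the filter on low counts terbinafine gave 1 and miglustat 1. With only the 2 groups in the fit, terbinafine gave 1, miglustat 0, and their contrast 5. With dhod-1 RNAi replicates 1 and 2 alone, 6 members were called. The replicate block gave 2 for terbinafine, 1 for miglustat and 23 for teriflunomide, and elsewhere it stayed within 1 call of the main count; except for brequinar against dhod-1 RNAi, same-numbered libraries did not all deviate together, so the numbers were not taken as pairs. Leaving out single libraries gave 1 to 3 calls for terbinafine, 1 to 2 for miglustat, 16 to 19 for BAY2402234, 3 to 7 for brequinar, 8 to 16 for dhod-1 RNAi, 32 to 34 for doxycycline and 19 to 30 for teriflunomide. For the direct contrasts it gave 3 to 6 between terbinafine and miglustat, 15 to 19 between BAY2402234 and brequinar, 13 to 17 and 16 to 20 for these against dhod-1 RNAi, and 25 to 28 between doxycycline and teriflunomide. Scaling by total counts alone moved the median of all genes by 0.16 between doxycycline and teriflunomide. Depth limits the members under 1 CPM, about 20 counts in a library, and 3 members could not be tested in either batch.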
